A study of Drosophila melanogaster with 136 samples.

Results

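The vacuolar proton pump (V-ATPase) is a rotary machine that splits ATP to push protons into lysosomes, endosomes, secretory vesicles and, in some epithelia, out of the cell. Its cytosolic V1 sector carries the catalytic subunit A and its partner B, a central rotor with subunits D and F, outer stalks, and the regulatory subunit H. Its membrane V0 sector holds the proton channel, built from the large subunit a and a ring of the proteolipids c and c″, with the small subunit e and, as an accessory protein, Ac45. In Drosophila several of these subunits are encoded by more than one gene, and paralogs of a subunit can differ in the tissues that use them.

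All genes whose symbol starts with Vha were taken by their FlyBase identifiers. The reference annotation lists 33, of which 29 were matched among the 17477 genes of each mRNA table. They comprise genes of subunit A (Vha68-1, Vha68-2 and Vha68-3), B (Vha55), D (Vha36-1, Vha36-2 and Vha36-3), F (Vha14-1 and Vha14-2) and H (VhaSFD). In V0 they comprise genes of subunit a (Vha100-1 to Vha100-5), c (Vha16-1 to Vha16-5), c″ (VhaPPA1-1 and VhaPPA1-2), d (VhaAC39-2) and e (VhaM9.7-a to VhaM9.7-d). VhaAC45 and VhaAC45RP encode the accessory protein. Vha44, Vha26, Vha13 and VhaAC39-1, for subunits C, E, G and d, had identifiers without a match in the tables and were not analysed here.

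The mRNA tables hold 68 libraries of poly(A) RNA, 30 from S2 cells and 38 from embryos. S2 is an established embryo-derived line with hemocyte features. The S2 libraries are 3 dora mutant clones and 3 wild-type (WT) clones, and 6 dora and 6 WT libraries of clones 1 to 3 that received double-stranded RNA against Ago1 or, as control, GFP. Dora is the fly ortholog of ZSWIM8, the receptor of a ubiquitin ligase needed for target-directed microRNA degradation, and AGO1 is the Argonaute protein that carries microRNAs. A further 12 S2 libraries are 2 replicates each of lines titled as trigger lines, with the genotypes ago1, h, kah, wgn and zfh1, and of their WT. The labels do not say what was changed in these lines or in the dora and CR43432 alleles. The embryo libraries are dora[A], dora[B] and CR43432 mutants with their own WT at 8-12, 12-16 and 16-20 h after egg laying, and WT at 0-2 and 2-4 h in the CR43432 set. Embryo groups hold 2 libraries, or 1 at 16-20 h in the CR43432 set. The titles call them lines in the CR43432 set and replicates in the dora sets, so a p-value measures the spread between these libraries, which in the dora embryo sets may be technical.

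Libraries held 8.96 to 35.5 M reads assigned to genes. Levels below are in CPM, the reads of a gene per 1 M such reads, which are not divided by transcript length and so are compared between samples and not between genes. AGO1 mRNA checked the knockdown: it was 191 to 212 CPM in dora and 216 to 238 CPM in WT cells under Ago1 RNAi, against 417 to 484 CPM in dora and 496 to 746 CPM in WT cells under GFP RNAi. The mRNA of Dora was 106 to 121 CPM in the mutant clones and 128 to 139 CPM in WT clones, and so does not by itself check the label. In the 5 WT S2 libraries without RNAi, 3 of 7 hemocyte markers (Pvr, crq and srp) had 318 CPM or more, while Hml, eater, NimC1 and Sr-CI had 7.06 CPM at most and NimC1 none. The neuron markers summed to 186 to 262 CPM there and the muscle markers to 1.02 to 2.69 CPM.

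Fewer Vha genes reached 5 CPM in WT S2 cells than in late WT embryos. In the 5 WT S2 libraries without RNAi, 13 of the 29 genes averaged at least 5 CPM, and in WT embryos of 16-20 h 18 did. The 5 that separate these sets were Vha36-3, Vha100-4, Vha100-5, VhaM9.7-a and VhaAC45RP. The samples are a cell line and a whole animal, and the share of all genes that reach 5 CPM in each is not given here. A further 11 genes averaged under 1 CPM in every WT class: Vha68-3, Vha36-2, Vha14-2, Vha100-3, Vha16-2, Vha16-3, Vha16-4, Vha16-5, VhaPPA1-2, VhaAC39-2 and VhaM9.7-d. No read at all was counted in the 30 S2 libraries for 7 genes, among them Vha100-5, and Vha16-4 had none in any of the 68.

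**Figure D1:**
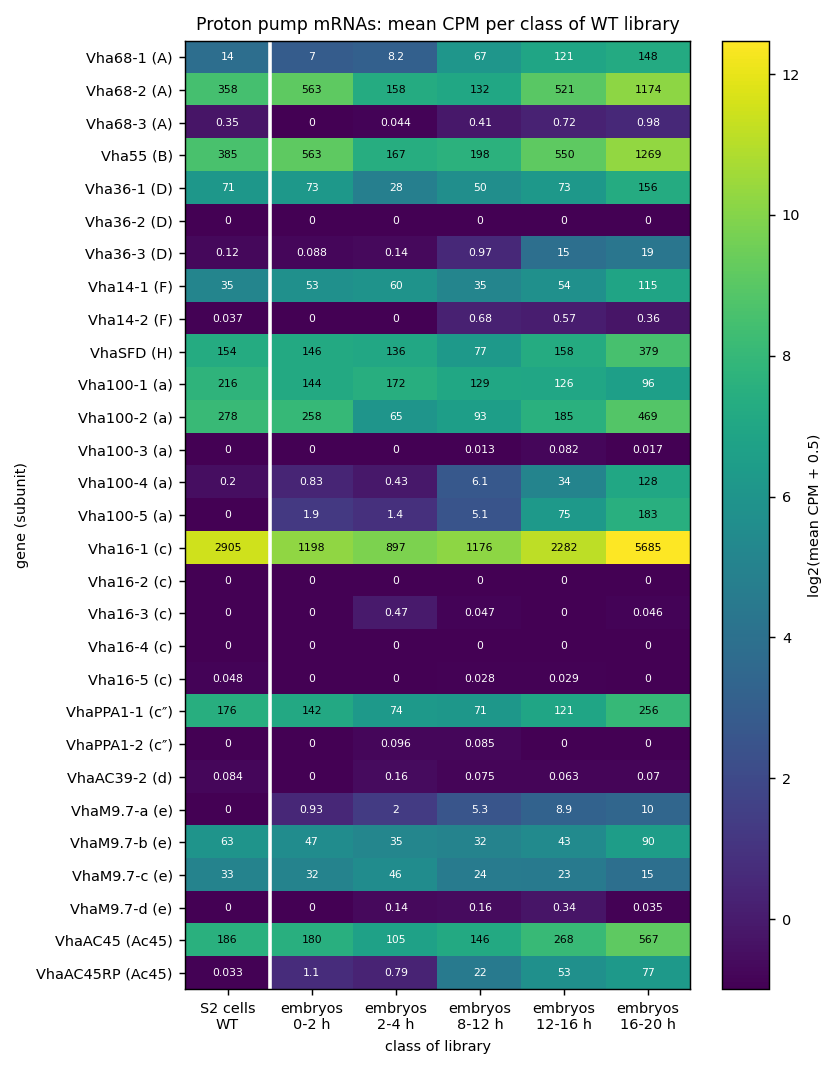
Mean level of each Vha gene in WT S2 cells without RNAi and in WT embryos of each age, printed in CPM and coloured by log2(mean CPM + 0.5), with genes ordered by subunit. Genes such as Vha16-1 and Vha55 are high in all 6 classes, while Vha100-5, VhaM9.7-a and VhaAC45RP are at or near 0 in S2 cells and higher at each later embryo age from 8-12 h.

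Of 22 Vha genes tested between the 5 WT S2 libraries and the 17 WT embryo libraries of 8 to 20 h, 6 were higher and 11 were lower in S2 cells (edgeR quasi-likelihood test, adjusted p under 0.05). Of all 12230 genes 34.8% were higher and 38.5% were lower, and the samples compared are a cell line and a whole animal. The median log2 fold change was -0.65 over the Vha genes and -0.36 over all genes. With other scaling (RLE, DESeq2, or a fit to these groups alone) the split was 2 higher and 13 lower, because VhaPPA1-1, VhaM9.7-b and Vha100-2 were no longer called, the sign of Vha16-1 turned, and Vha36-1 and VhaSFD were called lower. Under these scalings the median of all genes was -0.70, -0.52 and -0.67, and the shares of all genes called are not given here. Leaving out single libraries also ended calls of VhaPPA1-1, VhaM9.7-b, Vha100-2 and Vha16-1, each without S2 WT clone 1 or trigger set WT replicate 3 among others, and that of Vha14-2 without dora[B] set WT replicate 1 of 16-20 h.

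Almost all reads of the genes for the catalytic subunit A came from Vha68-2 in S2 cells, without correction for transcript length. Vha68-1 (2L:13000770-13004107, Release 6 of the genome) had 18.0, 14.4 and 23.0 CPM in the 3 WT clones and 8.64 and 7.54 CPM in the WT of the trigger set. In the 17 WT embryo libraries it had 50.5 CPM at the lowest, 123 at the median and 162 at the highest, so no S2 library reached any embryo library. The log2 fold change was -3.10 (SE 0.18, adjusted p = 9.08e-12, edgeR). Vha68-2 had 324 to 380 CPM in S2 cells and 104 to 1330 CPM in embryos, which overlap. As a share of the reads of the 3 subunit A genes, Vha68-1 took 3.88% ± 1.81 in S2 cells (SD, n = 5). It took 33.7% ± 2.38 at 8-12 h (n = 6), 18.9% ± 1.93 at 12-16 h (n = 6) and 11.2% ± 0.687 at 16-20 h (n = 5), but 0.712% and 1.74% at 0-2 h and 4.31% and 5.68% at 2-4 h, so that the contrast is with embryos from 8 h on. The log2 ratio of Vha68-1 to Vha68-2 counts was -4.76 ± 0.75 in S2 cells (SD, n = 5) and -1.97 ± 0.85 in embryos (n = 17), a difference of -2.80 (2-sided exact permutation test, p = 7.595e-05, the smallest it can give, and 0.0002025 after adjustment over 8 subunits). This test treats libraries of different ages and sets as exchangeable. Against embryos of 16-20 h alone the difference was -1.78 (exact permutation test, adjusted p = 0.01058, the unadjusted p again being the smallest it can give). Vha68-2 and Vha68-3 lie 178 bp apart and Vha68-1 lies 19.5 kb further on, and how reads shared by such copies were counted is not given in the sources used here.

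The rotor and accessory genes showed the same kind of split, again with embryos from 8 h on. At 0-2 and 2-4 h Vha36-3 had 0.0869 to 0.176 CPM, within its S2 range, and VhaAC45RP had 0.435 to 1.87 CPM. Vha36-3, a second gene for the rotor subunit D, had 0.0791 CPM at the lowest and 0.243 CPM at the highest in S2 cells, and 0.467 CPM at the lowest, 13.8 at the median and 23.9 at the highest in embryos. Its log2 fold change was -5.63 (SE 0.45, adjusted p = 1.042e-09, edgeR), and its share of subunit D reads was 0.165% ± 0.0868 in S2 cells (SD, n = 5) against 1.88% ± 0.979 in embryos of 8-12 h (n = 6), 16.3% ± 2.97 at 12-16 h (n = 6) and 11.0% ± 1.73 at 16-20 h (n = 5). The main gene, Vha36-1, had 53.5 to 88.2 CPM in S2 cells and 41.2 to 191 CPM in embryos. The log2 ratio of Vha36-1 to Vha36-3 was 8.87 ± 0.53 in S2 cells (SD, n = 5) and 3.78 ± 1.64 in embryos (n = 17; exact permutation test, adjusted p = 0.0002025). VhaAC45RP, a paralog of the accessory gene VhaAC45, had 0, 0, 0, 0.0791 and 0.0882 CPM in S2 cells against 15.9 to 87.6 CPM in embryos, with a median of 51.3 CPM. The groups were far apart, with a log2 fold change of -10.03 (SE 0.43, adjusted p = 9.492e-14, edgeR). The log2 ratio of VhaAC45 to VhaAC45RP was 11.5 ± 0.825 in S2 cells (SD, n = 5) and 2.63 ± 0.35 in embryos (n = 17; exact permutation test, adjusted p = 0.0002025). With so few reads in S2 cells the sizes of these ratios depend on the 0.5 added to each count: with 5 added, the S2 minus embryo difference was 6.07 in place of 8.85 for the accessory genes and 3.43 in place of 5.09 for subunit D, at the same adjusted p. For subunit F, Vha14-2 stayed under 1.2 CPM and had no read in 4 of the 5 S2 libraries. The difference in the Vha14-1 to Vha14-2 ratio was 2.21 (exact permutation test, adjusted p = 0.05301), passed the threshold without WT clone 2 (2.73, adjusted p = 0.01738) and was 0.0785 with 5 added to each count.

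Subunit a, which forms the proton half-channels and sets where the pump is placed, has 5 genes in the tables. Vha100-5 had no read in the 5 WT S2 libraries and 1.41 to 222 CPM in embryos, with a median of 68.8 CPM. Against a floor of 3 counts over the 5 libraries, 0.0502 CPM, it was at least 1635-fold lower in S2 cells than the embryo mean of 82.1 CPM. VhaM9.7-a, a subunit e gene, also had no read there and was at least 161-fold lower, with 2.08 to 12.7 CPM in embryos. Vha100-4 had 0.0791 to 0.555 CPM in S2 cells and 1.79 to 160 CPM in embryos (log2 fold change -7.25, SE 0.36, adjusted p = 6.8e-13, edgeR). Vha100-1, known in flies for its role at synapses, was higher in S2 cells: 212, 171, 229, 234 and 238 CPM there against 82.4 CPM at the lowest, 119 at the median and 158 at the highest in embryos. No S2 library overlapped these embryo libraries of 8 to 20 h, although WT embryos of 2-4 h had 165 and 178 CPM, and the log2 fold change was 0.94 (SE 0.07, adjusted p = 3.433e-10, edgeR). Vha100-2 overlapped, with 236 to 336 CPM in S2 cells and 64.8 to 607 CPM in embryos. Vha100-1 held 43.8% ± 3.90 of subunit a reads in S2 cells (SD, n = 5), and the ratio of Vha100-1 to Vha100-2 did not differ from that of all late embryos beyond the spread (difference 0.32, exact permutation test, adjusted p = 0.7218). Against embryos of 16-20 h alone it did (1.92, exact permutation test, adjusted p = 0.01058, the unadjusted p being the smallest it can give).

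VhaM9.7-c, a subunit e gene, was higher in S2 cells, with 24.4 to 45.0 CPM against 11.5 to 27.7 CPM in embryos (log2 fold change 0.70, SE 0.14, adjusted p = 0.0001101, edgeR). Without the trigger set WT replicate 3 this call was lost (adjusted p = 0.09759). VhaM9.7-b, with 55.9 to 68.9 CPM in S2 cells and 27.4 to 107 CPM in embryos, overlapped widely, as did VhaPPA1-1, with 155 to 193 CPM in S2 cells and 59.8 to 279 CPM in embryos. The reads of the c″ and c subunit genes came almost wholly from 1 gene each: VhaPPA1-1 and Vha16-1 held at least 99.5% of their subunit's reads in every WT library of these ages. Since VhaPPA1-2 and Vha16-3 had no read in the 5 WT S2 libraries, their ratios to VhaPPA1-1 and Vha16-1 say nothing of paralog use. The ratio of VhaM9.7-b to VhaM9.7-c differed by -0.24 between S2 cells and all late embryos (exact permutation test, adjusted p = 0.7218). Against 16-20 h alone it differed by -1.64 (exact permutation test, adjusted p = 0.01058, the unadjusted p being the smallest it can give). The calls of Vha genes depended on embryo age. With embryos of 8-12 h alone as the comparison, 11 were higher and 7 lower in S2 cells (27.9% and 41.5% of all genes), and with 16-20 h alone, 2 were higher and 17 lower (35.9% and 42.9% of all genes).

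The summed level of the measured Vha genes varied several fold through embryo development. Over all 29 genes, the mean sum in WT embryos was 3411, 1956, 2271, 4713 and 10838 CPM at 0-2, 2-4, 8-12, 12-16 and 16-20 h. Vha16-1 alone had means of 1198, 897, 1176, 2282 and 5685 CPM at these ages, the largest single part of the sum at each. From 0-2 to 2-4 h, Vha68-2 (563 to 158 CPM) and Vha55 (563 to 167 CPM) each fell by more CPM than Vha16-1. In whole embryos, more cells that use a gene and more RNA per cell cannot be told apart.

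**Figure D2:**
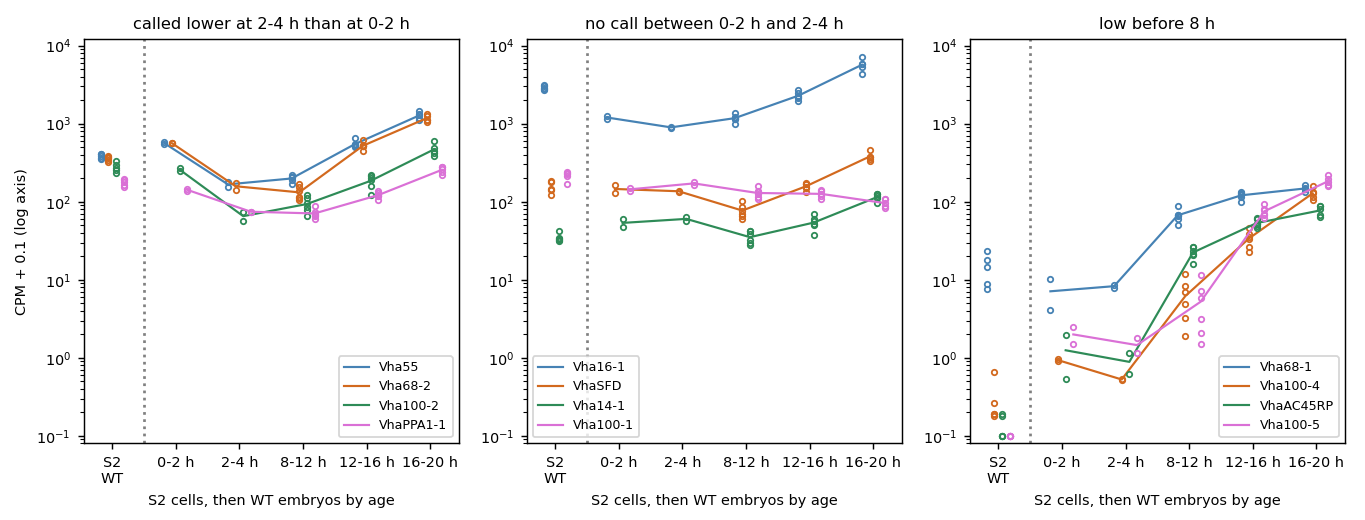
Level (CPM + 0.1, log axis) of 12 Vha genes in each WT S2 library without RNAi (left of the dotted line) and each WT embryo library by age, with the means of the embryo ages joined by lines. On the means, Vha55 is lowest at 2-4 h and Vha68-2 at 8-12 h, Vha68-2 then reaches 1048 to 1330 CPM at 16-20 h, Vha100-1 stays between 82 and 178 CPM in embryos, and Vha68-1, Vha100-4, Vha100-5 and VhaAC45RP start low.

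At 2-4 h against 0-2 h, 6 of 20 Vha genes tested were lower and none was higher (edgeR, 19.2% of all genes lower and 16.4% higher). Vha68-2 had 142 and 174 CPM at 2-4 h against 558 and 568 CPM at 0-2 h (log2 fold change -1.82, SE 0.19). Vha55, the non-catalytic partner of subunit A, had 155 and 178 CPM at 2-4 h against 545 and 581 CPM at 0-2 h (-1.73, SE 0.17). Vha100-2 had 57.4 and 73.1 CPM at 2-4 h against 246 and 270 CPM at 0-2 h (-1.97, SE 0.21). In these 3 genes both 2-4 h libraries lay far below both 0-2 h libraries, and the share of all genes separated in this way is not given here. Vha36-1 (-1.36, SE 0.18), VhaPPA1-1 (-0.91, SE 0.16) and VhaAC45 (-0.76, SE 0.16) were also lower, VhaPPA1-1 and VhaAC45 being genes of V0 and of its accessory protein, and the adjusted p of the 6 ran from 1.362e-05 to 0.002735 (edgeR). VhaAC45 was not called without the 0-2 h replicate 2 (-0.41, adjusted p = 0.1315). The median Vha gene changed by -0.40 and the median of all genes by 0.00. Vha100-1 was not called, with 165 and 178 CPM at 2-4 h, so that its mean share of subunit a reads was 72.0% at 2-4 h and 35.6% at 0-2 h.

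At 8-12 h against 2-4 h in the same set, 7 of 20 were higher and 3 lower (30.9% of all genes higher and 28.4% lower). Vha68-1 had 68.0 and 88.1 CPM at 8-12 h against 7.83 and 8.54 CPM at 2-4 h, a log2 fold change of 3.08 (SE 0.31, adjusted p = 7.821e-06, edgeR). VhaAC45RP had 23.4 and 26.1 CPM at 8-12 h against 0.521 and 1.06 CPM at 2-4 h (4.75, SE 0.45). Vha100-4 had 8.15 and 11.8 CPM at 8-12 h against 0.417 and 0.440 CPM at 2-4 h (4.34, SE 0.43). Vha36-1, Vha36-3, Vha100-2 and Vha14-2 were the other 4 higher. Of these, Vha36-3 and Vha14-2 were each not called without either 2-4 h replicate, Vha36-3 and Vha100-2 without the 8-12 h replicate 2, Vha14-2 without the 8-12 h replicate 1 and Vha100-2 without the 2-4 h replicate 1 (adjusted p up to 0.1158). The 3 lower were Vha14-1, with 29.2 and 32.1 CPM at 8-12 h against 57.1 and 63.3 CPM at 2-4 h (-1.15, SE 0.23), VhaSFD (-0.69, SE 0.16) and VhaM9.7-c (-0.93, SE 0.31). VhaM9.7-c was not called without the 2-4 h replicate 2 or either 8-12 h replicate (adjusted p up to 0.1032).

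At 16-20 h against 8-12 h, over the WT of 3 sets, 16 of 21 were higher and 1 lower (38.2% of all genes higher and 35.6% lower). The median log2 fold change was 2.13 over the Vha genes and 0.01 over all genes. Vha100-5 had 158 to 222 CPM at 16-20 h (n = 5) against 1.41 to 11.6 CPM at 8-12 h (n = 6), a log2 fold change of 5.70 (SE 0.35, adjusted p = 5.2e-08, edgeR). Vha100-4 (4.94, SE 0.21) and Vha36-3 (4.73, SE 0.35) followed, and Vha68-2 rose by 3.51 (SE 0.11), with 1048 to 1330 CPM at 16-20 h against 104 to 169 CPM at 8-12 h. The groups of these 4 genes did not overlap, and the share of all genes without overlap is not given here. Vha55 (3.00, SE 0.12), VhaSFD (2.66, SE 0.10) and Vha16-1 (2.57, SE 0.15) rose with them. Vha68-1 rose by less (1.47, SE 0.11). Vha100-1 was not called (-0.10), and its share of subunit a reads was 11.0% ± 1.22 at 16-20 h (SD, n = 5) against 55.6% ± 3.92 at 8-12 h (n = 6). VhaM9.7-c was the 1 called lower (-0.45, SE 0.15, adjusted p = 0.01375), with 11.5 to 18.8 CPM at 16-20 h against 19.1 to 27.7 CPM at 8-12 h, a call lost under RLE scaling or DESeq2. The neuron and muscle marker lists moved with these ages: 3 of 4 neuron and 3 of 3 muscle markers were higher at 16-20 h, and their part in the result was not tested.

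In dora mutant S2 cells 1 gene of the pump stood out, Vha68-1. It had 3.08, 2.58 and 4.32 CPM in the 3 dora clones against 18.0, 14.4 and 23.0 CPM in the 3 WT clones. All dora clones lay below all WT clones, and the log2 fold change was -2.32 (SE 0.22, adjusted p = 0.009716, edgeR). It was the 1 called of 13 Vha genes tested, where 1.77% of all genes were lower and 0.960% higher. Of the other 12, 11 had a positive log2 fold change and none was called, the lowest adjusted p being 0.0588 for VhaAC45 (0.52, SE 0.11). Vha16-1 had 3966, 3870 and 3739 CPM in dora clones against 2858, 2782 and 2724 CPM in WT clones, without overlap (0.62, SE 0.14, adjusted p = 0.06467). The median was 0.33 over the Vha genes and -0.004 over all genes. DESeq2 called 6 of the 13 Vha genes higher and 1 lower, and the share of all genes that it called is not given here.

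The clones under GFP RNAi differed in the same gene. Their titles carry the same clone numbers as the set without RNAi, so the sets may share clones and are not taken as independent. Vha68-1 had 4.23, 3.76 and 7.05 CPM in dora cells against 18.5, 13.5 and 20.0 CPM in WT cells (log2 fold change -1.76, SE 0.28, adjusted p = 0.007828, edgeR), again without overlap. It was the 1 called of 14 Vha genes, with 0.916% of all genes lower and 0.267% higher. Without dora clone 2 under GFP RNAi it was no longer called (-1.61, adjusted p = 0.05077). Of the other 13, 12 had positive values and none was called.

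**Figure D3:**
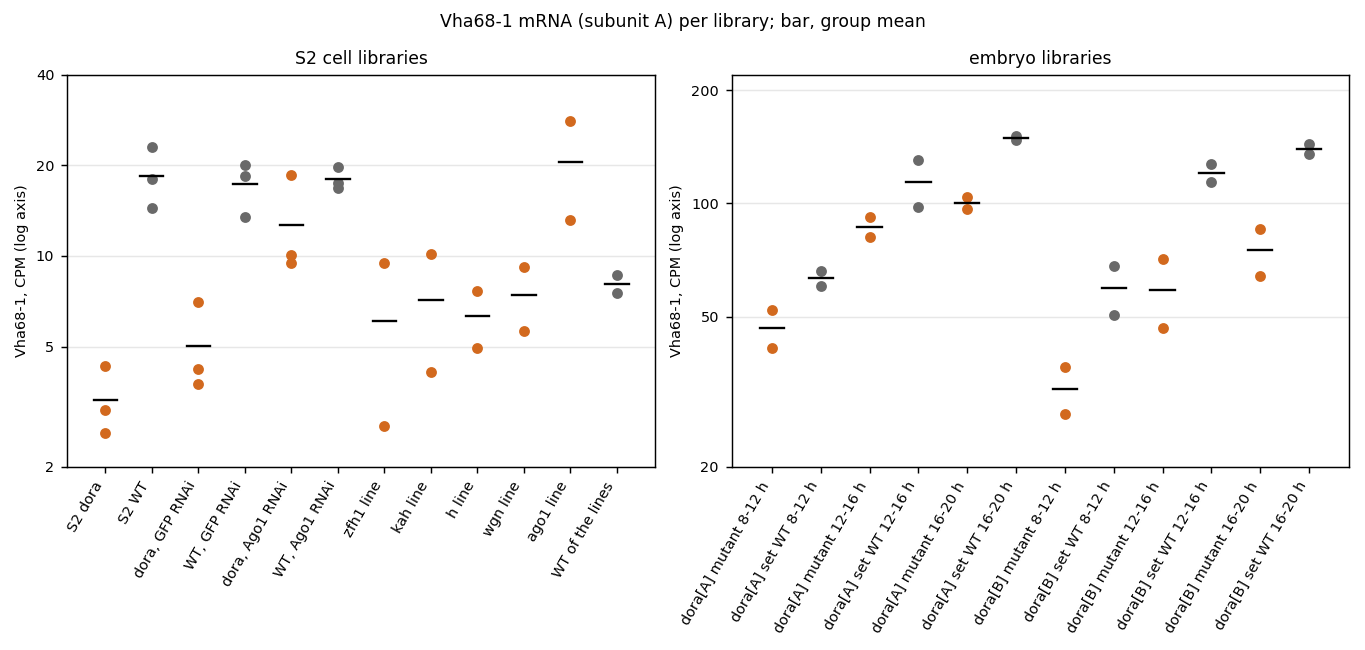
Level of Vha68-1 (CPM, log axis) in every S2 library, left, and in the dora[A] and dora[B] embryo sets by age, right, with 1 point per library and a bar at the group mean. The dora clones without RNAi and under GFP RNAi lie between 2.58 and 7.05 CPM, the WT clones of these sets between 13.5 and 23.0 CPM, and the trigger lines and their WT spread from 2.73 to 27.9 CPM. At each embryo age the mutants of both alleles lie below their WT.

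Vha68-1 varied widely among S2 lines that are not dora clones. In the trigger set it had 27.9 and 13.1 CPM in the ago1 line, 4.93 and 7.67 in h, 4.11 and 10.2 in kah, 5.63 and 9.18 in wgn and 9.44 and 2.73 in zfh1, against 8.64 and 7.54 CPM in their WT. In 4 of the 21 S2 libraries not made from dora clones it was below 7.05 CPM, the highest of the dora libraries without Ago1 RNAi. No Vha gene was called in any of the 5 lines by edgeR or DESeq2. In the edgeR fit to all lines none had an unadjusted p under 0.05. That fit called 0.0256% of all genes in zfh1, 0.0128% in ago1 and none in h, kah and wgn. Its Vha log2 fold changes ran from -0.46 to 0.26 in h, kah, wgn and zfh1 and from -0.23 to 1.18 in ago1. In an edgeR fit to the ago1 line and its WT alone, Vha68-1 had an unadjusted p of 0.0256 (log2 fold change 1.185, SE 0.36, adjusted p = 0.3697).

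Under Ago1 RNAi most of the tested pump genes were lower in dora cells. In dora cells 1 of 14 Vha genes was higher and 10 were lower under Ago1 against GFP RNAi (24.6% of all genes higher and 26.7% lower), with a median of -0.52. In WT cells none was higher and 5 were lower (25.6% and 28.4% of all genes), with a median of -0.39, and 9 were not called. In this fit, which does not pair libraries by clone, the WT count is not far from the share of all genes. With the clone as a block 9 were lower in WT cells, against 36.1% of all genes. The 5 lower in WT cells without the block, Vha14-1, VhaAC45, VhaM9.7-b, Vha68-2 and Vha16-1, were among the 10 in dora cells.

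Vha14-1, the rotor subunit F, fell most. It had 27.1, 29.1 and 31.2 CPM under Ago1 RNAi against 48.8, 59.5 and 63.7 CPM under GFP RNAi in dora cells (log2 fold change -0.97, SE 0.11, adjusted p = 4.211e-05, edgeR). In WT cells it had 21.9, 25.7 and 23.6 CPM under Ago1 RNAi against 44.3, 47.1 and 51.5 CPM under GFP RNAi (-0.96, SE 0.11, adjusted p = 4.061e-05). The groups did not overlap in either genotype. VhaM9.7-b had 62.8, 70.4 and 79.3 CPM under Ago1 against 115, 140 and 145 CPM under GFP RNAi in dora cells (-0.91, SE 0.15), and 55.6, 72.6 and 67.8 CPM under Ago1 against 75.6, 106 and 113 CPM under GFP RNAi in WT cells (-0.54, SE 0.15). VhaAC45 had 163, 188 and 187 CPM under Ago1 against 254, 323 and 320 CPM under GFP RNAi in dora cells (-0.73, SE 0.11), and 169, 159 and 177 CPM under Ago1 against 254, 231 and 260 CPM under GFP RNAi in WT cells (-0.52, SE 0.11). Vha68-2 fell by 0.60 (SE 0.10) in dora and 0.41 (SE 0.10) in WT cells, and Vha16-1, the proteolipid ring gene, by 0.55 (SE 0.15) and 0.46 (SE 0.15). VhaPPA1-1, Vha36-1, VhaSFD, Vha100-2 and Vha55 fell in dora cells, by 0.62, 0.49, 0.46, 0.41 and 0.26 on the log2 scale, with adjusted p up to 0.01779 (edgeR). Without the WT clone 1 under Ago1 RNAi 3 genes were called in WT cells, Vha16-1 and VhaM9.7-b being lost. Vha16-1 was also lost without the WT clone 2 under Ago1 RNAi or clone 1 under GFP RNAi, and in a fit to the WT groups alone (adjusted p up to 0.07864), and VhaM9.7-b without the WT clone 3 under GFP RNAi. In dora cells Vha55 was not called without clone 1 under Ago1 RNAi, without clone 2 or 3 under GFP RNAi, or with no filter on low counts (adjusted p up to 0.1107). Vha100-2 was not called there without clone 2 under Ago1 RNAi or clone 3 under GFP RNAi (adjusted p up to 0.07813).

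The labels tie the Ago1 and GFP libraries to the same clone, and with the clone as a block 9 Vha genes were lower and 1 higher in WT cells, where 36.1% of all genes were lower and 33.7% higher. It added Vha36-1, VhaSFD, VhaPPA1-1 and VhaM9.7-c as lower and Vha100-1 as higher (0.14), and in dora cells, where 34.4% of all genes were then lower and 32.5% higher, it added VhaM9.7-c as lower. No difference of the Ago1 effect between genotypes was called for any of the 14 genes without the block (0.0763% of all genes; 1 Vha gene at an unadjusted p under 0.05, none by DESeq2).

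Vha68-1 went the other way in dora cells. It had 9.47, 10.1 and 18.6 CPM under Ago1 RNAi against 4.23, 3.76 and 7.05 CPM under GFP RNAi, in clones 1 to 3, so that it was higher in each clone (log2 fold change 1.35, SE 0.27, adjusted p = 0.001601, edgeR). In WT cells it had 19.7, 16.8 and 17.4 CPM under Ago1 against 18.5, 13.5 and 20.0 CPM under GFP RNAi (0.10, SE 0.26, adjusted p = 0.7548). The effect in dora minus that in WT cells was 1.25 (SE 0.38, adjusted p = 0.6862), and with the clone as a block 1.24 (SE 0.18, adjusted p = 0.00797), which was called, as were 1.09% of all genes as higher and 0.560% as lower. Under Ago1 RNAi, dora against WT cells differed by -0.51 for Vha68-1 (adjusted p = 0.62), and none of 14 Vha genes was called (0.356% of all genes; 1 at an unadjusted p under 0.05, Vha14-1, and none by DESeq2).

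In embryos, Vha68-1 was the one of 18 pump genes averaging 1 CPM or more whose mutant libraries all lay below all WT libraries at each age in both dora alleles. In dora[A] it had 41.2 and 52.0 CPM against 66.1 and 60.5 CPM in WT at 8-12 h, 81.5 and 91.8 CPM against 131 and 97.8 CPM in WT at 12-16 h, and 96.9 and 104 CPM against 151 and 147 CPM in WT at 16-20 h. Its log2 fold change over the ages, -0.48 (SE 0.12), was not called (edgeR, adjusted p = 0.7298), and 0 genes of all 11153 (0%) were called in this set. Of 20 Vha genes tested 4 had an unadjusted p under 0.05 (Vha68-1, Vha100-2, Vha100-4 and VhaAC45RP, all lower), and DESeq2 called none.

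In dora[B] embryos Vha68-1 had 27.6 and 36.7 CPM against 68.3 and 50.5 CPM in WT at 8-12 h, 71.1 and 46.8 CPM against 127 and 114 CPM in WT at 12-16 h, and 64.3 and 85.7 CPM against 144 and 135 CPM in WT at 16-20 h. The groups did not overlap at any age, and the log2 fold change was -1.06 (SE 0.16, adjusted p = 0.0004158, edgeR). Vha36-1 (-0.77, SE 0.20), Vha36-3 (-0.94, SE 0.29), VhaAC45RP (-0.90, SE 0.24) and Vha55 (-0.51, SE 0.19) were also lower, with adjusted p from 0.01151 to 0.04512. That made 5 of 21 lower and none higher, where 24.7% of all genes were lower and 17.8% higher, and the median was -0.48 over the Vha genes and -0.38 over all genes. Vha68-1 was called under all 16 alternatives run, while the call of Vha55 was lost in 12, that of Vha36-3 in 7, that of Vha36-1 in 2 and that of VhaAC45RP in 1. With 1 library left out, 2 to 13 Vha genes were called: 2 without the WT replicate 2 of 16-20 h, 3 without any of WT replicate 1 of 8-12 h, WT replicate 1 of 12-16 h, mutant replicate 2 of 8-12 h or mutant replicate 2 of 12-16 h, and 13 without the mutant replicate 2 of 16-20 h. The shares of all genes called in these refits are not given here. The mutant libraries of 16-20 h correlated at 0.965 on the log2 scale, the lowest value of any replicate pair. Among the 18 Vha genes that averaged 1 CPM or more, mutant libraries lay below WT libraries at each of the 3 ages for 3. These were Vha68-1, Vha36-1 and VhaAC45RP, against 11.4% of all such genes. Mutant libraries lay above WT libraries for Vha100-1 alone (17.9% of all such genes). In dora[A] this held for 1 of 18 below, Vha68-1 (0.988% of all such genes), and in both sets together for Vha68-1 (0.306%).

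The dora[B] libraries also differed in other ways. All 4 neuron markers and all 3 muscle markers were lower in the mutant (medians -0.63 and -0.65), as were 3 of 7 hemocyte markers, and of 4 maternal RNAs 2 were higher and 1 lower. The summed neuron markers had 953 to 1671 CPM in dora[B] mutants and 1837 to 2352 CPM in their WT. Their part in the lower pump genes was not tested. The same lists had no member called in dora[A] embryos, but 0 of all 11153 genes were called there. The absence of calls therefore says nothing of these lists in particular.

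Vha14-1 changed sign with age in dora[B]. It had 61.3 and 55.7 CPM against 38.0 and 28.1 CPM in WT at 8-12 h (log2 fold change 0.97, adjusted p = 0.044, edgeR), 60.3 and 67.2 CPM against 68.7 and 50.1 CPM in WT at 12-16 h, and 73.7 and 92.8 CPM against 125 and 119 CPM in WT at 16-20 h (-0.85, adjusted p = 0.043). In dora[A] it had 46.5 and 39.1 CPM against 41.5 and 41.5 CPM in WT at 8-12 h, with no call. The shares of all genes called at single ages are not given here. Averaged over the ages, 24.7% of all genes were lower and 17.8% higher in dora[B]. In CR43432 embryos no Vha gene of 20 was called (0.0436% of all genes; 1, Vha100-4, at an unadjusted p under 0.05, and none by DESeq2), and Vha68-1 was at -0.07.

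The mitochondrial F-type ATP synthase, a related rotary enzyme that makes ATP, was read beside the pump. Of its 13 genes, 1 was higher and 11 lower in S2 cells than in embryos, where 34.8% and 38.5% of all genes were (ATPsynC -1.63, ATPsynbeta -1.32 and blw -1.32). Under Ago1 RNAi 11 were lower in each genotype, and 1 was higher in dora cells (ATPsynE -1.11 in dora and -1.10 in WT cells), against 26.7% of all genes lower in dora and 28.4% in WT cells. At 16-20 h against 8-12 h all 13 were higher, as were 38.2% of all genes (blw 1.83, ATPsynCF6 1.94 and ATPsynbeta 1.56). In dora[B] embryos 6 were lower and none higher, with 24.7% of all genes lower (ATPsynC -0.60, ATPsynbeta -0.66 and ATPsyngamma -0.70). Genes of the lysosome and of pump regulation moved otherwise: in S2 cells against embryos 16 of 23 were higher and 2 lower (34.8% and 38.5% of all genes), among them the chloride transporter ClC-b (3.16), the sugar transporter-like spin (2.10) and Lamp1 (1.32). At 2-4 h against 0-2 h 4 were higher and 7 lower (16.4% and 19.2% of all genes), with the rabconnectins Rbcn-3A (-2.38) and Rbcn-3B, which help assemble the pump, among the lower. At 16-20 h against 8-12 h 6 were higher and 12 lower (38.2% and 35.6% of all genes), with Cln3 at 8.99, Cln7 at -2.83 and the growth kinase mTor at -1.28. Under Ago1 RNAi 5 were higher and 5 lower of 22 in dora cells, and 6 higher and 4 lower in WT cells, where 24.6% and 26.7% of all genes went each way in dora and 25.6% and 28.4% in WT cells, with the sterol-binding Npc2a at -2.87 in dora and -3.07 in WT cells. In dora[B] embryos 5 were higher and 7 lower (17.8% and 24.7% of all genes), with Npc2a at 1.39, the protease cathD at 1.63 and the sorting gene dor at 0.86. In dora S2 clones, with 0.960% of all genes higher, 1 was called, spin, which was higher (0.63, SE 0.10, adjusted p = 0.03291, edgeR).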

How the data were processed

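The deposited mRNA tables hold raw read counts per gene, 1 column per library, made by the authors; STAR 2.4, HTSeq and the genome build dm6 are listed in the submitters' processing notes. The sources used here do not give the strand setting or the handling of reads that match several genes. Per the labels' protocols, poly(A) libraries were read as single ends, and those of the RNAi set, made with another kit, as paired ends. Rows that name no gene (6.02 to 20.5% of counts) were left out.

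The members and gene lists were chosen with earlier results of these data known. Genes were tested with edgeR 4.0.16 (R 4.3.3): filterByExpr, TMM scaling, robust quasi-likelihood fits with 1 coefficient per group, and Benjamini-Hochberg adjustment over all genes. A gene was called at an adjusted p under 0.05. Fold changes weight ages equally and follow TMM scaling, so they can differ from ratios of CPM means. SE is the log2 fold change divided by the root of F. DESeq2 1.42.0 was an alternative. The steps were tested on simulated data. Ratios of paralogs, as log2 of counts plus 0.5, were compared by an exact permutation test over libraries (scipy 1.17.1).

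Single-library values were to be given for all called genes where at most 8 were called, and for genes of the ratio tests. Otherwise they were to be given for the 4 largest changes in each direction with a mean of at least 5 CPM. For some of these genes only a range or the fold change is printed. Of related lists, the 3 genes with the smallest adjusted p were to be named. Ago1 and GFP libraries were paired by clone, as the titles give it; their deviations correlated at 0.524 to 0.695. For dora against WT the labels share numbers only. The column of the wgn line numbered 1 was matched to its group alone. No transcript lengths or sequences were used here, so levels per length and promoter motifs were not computed. A count of 0 allows up to 3 counts; such limits cover counting error only.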

Additional observations from a re-analysis of the deposited data

Results flagged for a closer look

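The effect of dora[B] on Vha14-1, the rotor subunit F gene, differed between ages. Its log2 fold change in mutant against WT embryos was 0.97 at 8-12 h and -0.85 at 16-20 h, and the effect at 16-20 h minus that at 8-12 h was -1.83 (SE 0.36, adjusted p = 0.029, edgeR, 2 libraries per group). Both mutant libraries were above both WT libraries at 8-12 h and below both at 16-20 h. In dora[A] the same difference was -0.21 (SE 0.29, adjusted p = 0.9999). Vha14-1 was the 1 Vha gene flagged for such a difference, and the share of all genes that differed between ages is not given here.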

How the results depend on the processing

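Of 73 called results for single Vha genes, 47 kept their call and direction under every alternative run, and of 1320 alternative values 98 were no longer called and 19 changed sign. For dora against WT clones 3 Vha genes were called with no filter on low counts and 7 by DESeq2, and for GFP RNAi 4 with the replicate number as a block. The shares of all genes called under these alternatives, or with 1 library left out, are not given here. With the clone as a block 10 were called for Ago1 RNAi in WT cells and 1 for the difference between genotypes. For dora against WT the numbers only name the clones (correlations -0.26 to 0.24), and no block could be fitted to all 5 trigger lines. With 1 library left out, the count was 0 to 1 for dora against WT under GFP RNAi, 3 to 5 for Ago1 RNAi in WT cells, 10 to 11 in dora cells, 2 to 13 for dora[B] and 14 to 17 for S2 cells against embryos.

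The S2 against embryo values that changed sign were these. For Vha16-1 they were -0.0807 with RLE scaling and with DESeq2, -0.0517 for the groups alone, -1.07 at 16-20 h, -0.28 with GFP RNAi WT cells, and -0.0068, -0.0059, -0.0046 and -0.0015 with 1 library left out (range -0.0068 to 0.30). Vha68-2 was 0.0552 with no filter and 1.63 at 8-12 h. Also at 8-12 h, Vha55 was 1.13, Vha14-1 0.16 and VhaAC45 0.50. At 16-20 h, VhaPPA1-1 was -0.67, VhaM9.7-b -0.59 and Vha100-2 -0.90, and with GFP RNAi WT cells Vha100-2 was -0.24. VhaM9.7-c at 16-20 h against 8-12 h was 0.0062 in the dora[B] set alone. Against embryos of 16-20 h alone, the paralog ratio differed by 1.92 for subunit a and -1.64 for e (exact permutation tests, adjusted p = 0.01058 each). The unadjusted p of both is the smallest this test can give. The value for c″ against 16-20 h alone, -1.18, is set by the 0.5 added to counts, since VhaPPA1-2 had no read in either group. For subunit F it was 0.0785 with 5 added to counts and 0.25 against 16-20 h alone, and ran from 2.04 to 2.73 with 1 S2 library left out, passing the threshold without WT clone 2. The causes were not tested. The 16-20 h libraries of the CR43432 set, 1 per group, could not be left out. Depth limits the 11 genes under 1 CPM, Vha14-2 and its ratio among them.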

Other observations

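In the dora clone numbered 3, 2 genes of V0 stood apart from clones 1 and 2. Vha100-4, a subunit a gene that is otherwise nearly silent in S2 cells, had 11.1 CPM under GFP RNAi and 9.72 CPM under Ago1 RNAi, against 0 to 0.863 CPM in clones 1 and 2 under either RNAi. In the dora clone of that number without RNAi it had no read. VhaM9.7-c, a subunit e gene, had 11.9 CPM in clone 3 without RNAi, 23.7 CPM under GFP RNAi and 13.9 CPM under Ago1 RNAi. In clones 1 and 2 it had 30.6 and 25.2 CPM without RNAi, 51.6 and 39.6 CPM under GFP RNAi, and 28.1 and 27.4 CPM under Ago1 RNAi. Vha100-4 lies 517 bp from Vha100-2 on chromosome arm 3R. These genes were chosen after their values were seen.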
